A study of Rattus norvegicus with 18 samples.

Results

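The glucose transporters Slc2a1 (GLUT1), Slc2a3 (GLUT3) and Slc2a4 (GLUT4), the hexokinases Hk2 and Hk3, and the lactate transporters Slc16a1 (MCT1) and Slc16a3 (MCT4) were followed across rat 9L gliosarcoma as tumour tissue and as cultured cells. They were taken as every probe set whose single gene symbol in the platform annotation was one of these names. All 7 genes were measured, each by 1 probe set, out of 14324 genes and 27363 probe sets. Their probe sets are 10871521 (Slc2a1), 10865349 (Slc2a3), 10744324 (Slc2a4), 10863430 (Hk2), 10794116 (Hk3), 10818090 (Slc16a1) and 10740209 (Slc16a3).

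9L is a transplantable rat gliosarcoma line, widely used to model glioma. The tumours were carried as tissue pieces and grown on the epigastric vessels of male Fischer 344 rats, given as 6 weeks old, from passages started with a subcutaneous injection of 9L cells, so they lay outside the brain and in an isogenic host with its immune cells. EF5 is a nitroimidazole that is retained in cells at low oxygen. Laser capture, which lifts chosen areas out of a tissue section, gave an EF5-positive area (hypoxic region) and an EF5-negative area (normoxic region) from each of 3 tumours. The cultures were 9L cells held at 0.2% oxygen (hypoxic) or at about 20% (normoxic) for 6 h or for 16 h, and each of these 4 culture groups had 3 arrays. No group carried a gene edit or a drug, apart from the hypoxia marker EF5 used for the tumours. Nothing in the labels tells whether cultures of the same kind came from separate experiments. Their p-values therefore cover the spread between these arrays alone, and part of it may be technical.

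Glucose enters most cells through facilitative carriers of the SLC2 family, which let it run down its gradient, and hexokinase then traps it inside the cell as glucose-6-phosphate. Cells that run glycolysis without enough oxygen turn pyruvate into lactate, which leaves together with a proton through monocarboxylate transporters of the SLC16 family. The hypoxia-inducible factors (HIF) are transcription factors that accumulate when oxygen is low. Slc2a1, Hk2 and Slc16a3 are among their textbook targets in tumour cells.

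Because HIF binds a short core motif, the bases upstream of the start are shown for some of the genes. They are Slc2a1 and Hk2, which rose in culture, and the lactate transporters Slc16a3 and Slc16a1. The response of Slc16a3 differed between tumours and cultures, but neither lactate transporter had a called response in tumours or in cultures alone. RefSeq (build GRCr8) gave 250 bases upstream of a start for 5 of the 7 genes, namely Slc2a1, Hk2, Hk3, Slc16a1 and Slc16a3. Capitals mark ACGTG and GCGTG, the forms of the HIF core motif, and their reverse complements CACGT and CACGC, so that both strands are covered. The windows are printed 5′ to 3′ on the gene's strand. They are Slc2a1 at chr5:138002272-138002521 (plus strand), Hk2 at chr4:116841276-116841525 (minus strand), Slc16a1 at chr2:194812410-194812659 (plus strand) and Slc16a3 at chr10:106712078-106712327 (plus strand). The windows of Slc16a1 and of Hk3 lie inside the spans of their RefSeq genes, so the starts they belong to are not the outermost ones. Those of Slc2a1, Hk2 and Slc16a3 lie at the outermost start. Only 1 start per gene was used, so any further starts were not searched.
Slc2a1: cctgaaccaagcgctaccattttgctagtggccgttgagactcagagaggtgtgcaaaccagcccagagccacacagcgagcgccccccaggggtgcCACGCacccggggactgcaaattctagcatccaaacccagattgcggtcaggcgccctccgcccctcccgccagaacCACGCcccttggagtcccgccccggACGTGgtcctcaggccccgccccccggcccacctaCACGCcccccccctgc
Hk2: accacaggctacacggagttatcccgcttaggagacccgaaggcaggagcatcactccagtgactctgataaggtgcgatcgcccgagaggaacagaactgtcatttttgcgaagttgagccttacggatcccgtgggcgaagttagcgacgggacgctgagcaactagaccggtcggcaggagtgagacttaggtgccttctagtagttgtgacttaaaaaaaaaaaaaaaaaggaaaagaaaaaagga
Slc16a1: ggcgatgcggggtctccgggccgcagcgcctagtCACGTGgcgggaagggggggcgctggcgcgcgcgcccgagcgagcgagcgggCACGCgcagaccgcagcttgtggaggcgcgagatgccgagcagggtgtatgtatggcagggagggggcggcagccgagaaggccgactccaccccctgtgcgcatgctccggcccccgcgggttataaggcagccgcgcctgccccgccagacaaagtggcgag
Slc16a3: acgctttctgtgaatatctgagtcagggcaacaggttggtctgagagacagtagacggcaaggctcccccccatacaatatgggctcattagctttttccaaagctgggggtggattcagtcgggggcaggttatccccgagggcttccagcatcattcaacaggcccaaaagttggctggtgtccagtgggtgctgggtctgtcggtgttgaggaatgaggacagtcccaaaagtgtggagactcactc
The Slc2a1 window held 1 ACGTG, at bases -51 to -47 before the start, and 3 copies of GCGTG on the other strand. The Slc16a1 window held CACGTG at -216 to -211, in which CACGT and ACGTG overlap, and 1 GCGTG on the other strand. The Hk3 window held 1 ACGTG on the other strand at -97 to -93, and the Hk2 and Slc16a3 windows held neither form. Of 33469 RefSeq rat windows of this length, 36.7% held at least 1 of these forms (16.6% held ACGTG and 25.9% held GCGTG), and a window of this length shows nothing of more distant sites.

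Values are log2 signals, so a difference of 1 is a doubling, and levels are compared between groups within a gene only, since the brightness of a probe set also depends on its probes. Array medians ran from 6.36 to 6.5 in tumour arrays and from 6.02 to 6.19 in culture arrays. The SD over probe sets was 1.76 to 1.92 in tumour arrays and 2.04 to 2.17 in culture arrays, so tumour values were less spread out. Arrays of a group correlated at 0.937 to 0.964 in tumours and at 0.988 to 0.996 in cultures; precision is limited by the small number of arrays. Among tumour arrays, that of the normoxic region of tumour 3 stood out. Its correlation with the mean normoxic culture was 0.941, against 0.865 to 0.892 for the other 5, and its SD over probe sets was 1.92, against 1.76 to 1.79. The differences of the 7 genes between tumour regions are therefore also given without tumour 3, as are the tumour values of the leukocyte markers and of the other genes of glucose and lactate handling. The 8 measured glial and neural stem cell markers ranged widely in brightness. Averaged over the arrays, vimentin (Vim) was brighter than 99.7% and Pdgfra than 90.4% of all probe sets, Sox2, Cspg4 and Nes were brighter than 66.5%, 62.7% and 58%, and Gfap, Olig1 and S100b than 27.4%, 24.7% and 20.4%.

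In culture, low oxygen raised Slc2a1 and Hk2 at both times and Slc2a3 at 16 h. In tumours, Slc2a1, Slc2a3, Hk2 and Slc16a3 were each higher in the hypoxic region of all 3 tumours (22.9% of probe sets were), by 1.20 to 1.93 log2 units on average, but no gene on the array passed the test there. Slc16a3, the lactate exporter of glycolytic cells, differed between tumour regions and hardly between cultures, and this contrast passed the test of the difference itself. Slc16a1, Hk3 and Slc2a4 had no called response to oxygen in tumours or in cultures. Hk3 and Slc16a1 differed between tumour and culture, and Slc2a4 did so only in the values as deposited, not after rescaling.

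**Figure D1:**
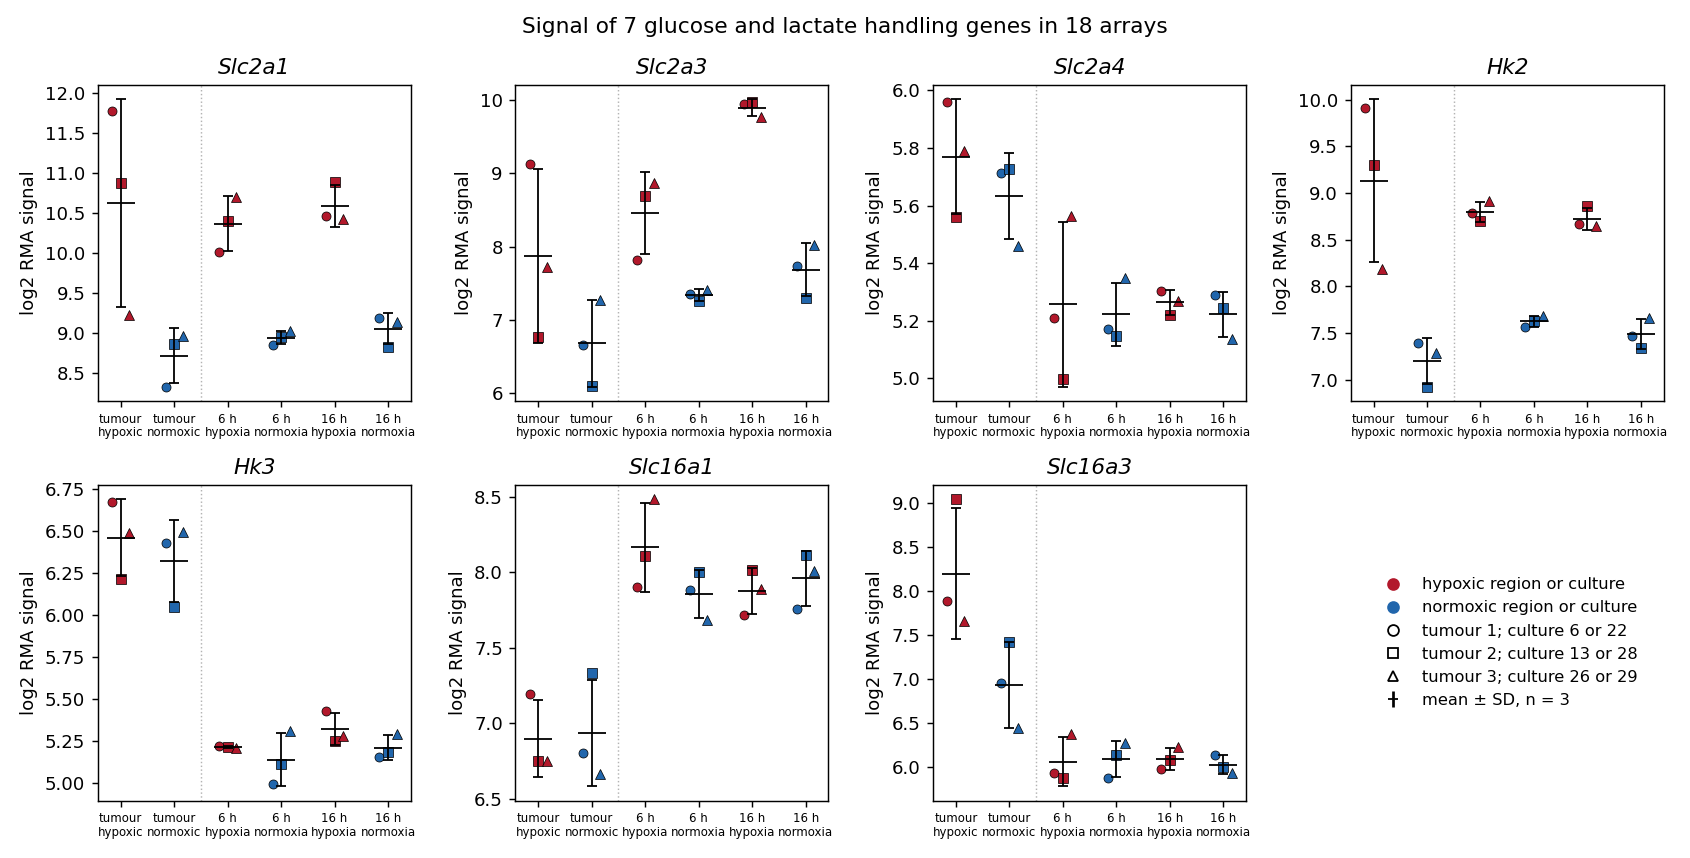
Each panel plots the log2 signal of a gene (vertical axis) in the 18 arrays by group (horizontal axis), with the horizontal bar at the mean and the vertical bar at ± SD (n = 3). Slc2a1 and Hk2 are high in all hypoxic groups, Slc2a3 is highest in cultures after 16 h of hypoxia, Slc16a3 is higher in tumour groups than in cultures, and Hk3 and Slc16a1 separate tumours from cultures in opposite directions.

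Slc2a1 encodes the widely expressed transporter of basal glucose uptake. In tumours 1, 2 and 3 its level was 11.78, 10.87 and 9.23 in hypoxic regions and 8.34, 8.86 and 8.97 in normoxic regions. All 3 hypoxic regions lay above all 3 normoxic ones, but the gap was 3.44 in tumour 1 and 0.26 in tumour 3. The difference was 1.90 ± 0.55 log2 units (SE, n = 3 tumours), or 3.74-fold, with adjusted p = 0.403. It was 1.13 without tumour 1 and 2.72 without tumour 3. In culture, the level after 6 h was 10.01, 10.39 and 10.69 in hypoxia and 8.86, 8.95 and 9.03 in normoxia. After 16 h it was 10.46, 10.89 and 10.42 in hypoxia and 9.19, 8.83 and 9.15 in normoxia. The hypoxic and normoxic cultures did not overlap at either time. Slc2a1 rose by 1.42 ± 0.17 (2.68-fold, adjusted p = 0.00171) at 6 h and by 1.53 ± 0.17 (2.89-fold, adjusted p = 0.000707) at 16 h. Ordered by mean level, the 3 hypoxic groups (10.62 in tumours, 10.59 at 16 h, 10.37 at 6 h) overlapped in range, and so did the 3 normoxic groups (9.06 at 16 h, 8.95 at 6 h, 8.72 in tumours), while the lowest hypoxic array (9.23, tumour 3) lay 0.04 above the highest normoxic array (9.19, a 16 h culture).

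Slc2a3 encodes a transporter with high affinity for glucose that is best known from neurons. Its level after 6 h was 7.81, 8.70 and 8.86 in hypoxic cultures 6, 13 and 26, against 7.36, 7.25 and 7.41 in the normoxic cultures of the same numbers. After 16 h it was 9.95, 9.97 and 9.76 in hypoxia and 7.74, 7.30 and 8.02 in normoxia. Hypoxic culture 6 was the lowest of its group, and the 16 h hypoxic cultures lay above all other arrays. The difference was 1.12 ± 0.23 (2.17-fold, adjusted p = 0.0979) at 6 h, and 1.44 (adjusted p = 0.00267) without hypoxic culture 6. At 16 h Slc2a3 rose by 2.21 ± 0.23 (4.62-fold, adjusted p = 0.000331). Hypoxic cultures held more Slc2a3 at 16 h than at 6 h, by 1.44 ± 0.23 (2.71-fold, adjusted p = 0.00554), whereas normoxic cultures differed by 0.35 ± 0.23 between the times (adjusted p = 0.406). The 6 h and 16 h cultures carried different numbers, so time could not be told apart from the set of cultures. The test of the difference between both responses gave 1.09 ± 0.32 (adjusted p = 0.982) and was not passed.

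In tumours 1, 2 and 3 the Slc2a3 level was 9.13, 6.77 and 7.72 in hypoxic regions and 6.66, 6.10 and 7.28 in normoxic regions. Here the groups overlapped, since the hypoxic region of tumour 2 lay below the normoxic region of tumour 3. The difference was 1.20 ± 0.41 (2.29-fold, adjusted p = 0.468), and it was 0.56 without tumour 1 and 1.57 without tumour 3. Below the 16 h hypoxic cultures, each group overlapped in range with its neighbour in the order of mean levels, which ran from 6 h hypoxia (8.46) through hypoxic regions (7.87), 16 h normoxia (7.69) and 6 h normoxia (7.34) to normoxic regions (6.68).

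Slc2a4 encodes the insulin-responsive transporter of muscle and fat. Its probe set was dim, brighter on average than 31.3% of all probe sets, and RMA values carry no call of presence. Its level was 5.96, 5.56 and 5.79 in hypoxic regions and 5.71, 5.73 and 5.46 in normoxic regions, and it ran from 5.0 to 5.56 across all 12 cultures. Within single arrays it was brighter than 29.9% to 37.2% of probe sets in tumours and than 28.9% to 36.8% in cultures. Hypoxic and normoxic samples overlapped in tumours and at both culture times. The differences were 0.14 ± 0.20 in tumours (95% interval -0.35 to 0.62), 0.04 ± 0.13 at 6 h (-0.24 to 0.31) and 0.04 ± 0.13 at 16 h (-0.24 to 0.32), none of them called. Without tumour 3 the tumour difference was 0.04.

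Hk2 encodes the hexokinase that is induced in many tumours and sits on mitochondria. Its level in tumours 1, 2 and 3 was 9.91, 9.30 and 8.18 in hypoxic regions and 7.40, 6.93 and 7.28 in normoxic regions. The groups did not overlap, and the gap was 2.51, 2.37 and 0.90 in tumours 1, 2 and 3. That is a difference of 1.93 ± 0.34 (SE, n = 3 tumours), or 3.80-fold, with adjusted p = 0.219. It was 1.64 (adjusted p = 0.00738) without tumour 1 and 2.44 (adjusted p = 0.408) without tumour 3. Without tumour 1 the SE was 0.33 to 0.36 for all 7 genes, and 563 probe sets passed (2.06%). The p of that fit leans on a spread borrowed from all probe sets and hardly measures that between tumours. In culture, the Hk2 level after 6 h was 8.79, 8.70 and 8.91 in hypoxia and 7.57, 7.63 and 7.68 in normoxia. After 16 h it was 8.67, 8.86 and 8.65 in hypoxia and 7.47, 7.34 and 7.66 in normoxia. Both groups were tight at both times and far apart. Hk2 rose by 1.17 ± 0.11 (2.26-fold, adjusted p = 0.000167) at 6 h and by 1.24 ± 0.11 (2.36-fold, adjusted p = 7.13e-05) at 16 h. The rise differed by 0.06 ± 0.15 between the times (95% interval -0.27 to 0.39, adjusted p = 0.991). As with Slc2a1, the 3 hypoxic groups (9.13 in tumours, 8.80 at 6 h, 8.72 at 16 h) overlapped in range and lay above the 3 normoxic groups (7.63 at 6 h, 7.49 at 16 h, 7.20 in tumours). Of the normoxic groups, the 16 h cultures overlapped with both others, while the 6 h cultures lay above the tumour regions.

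Hk3 encodes a hexokinase found mainly in blood leukocytes. Its level was 6.67, 6.22 and 6.49 in hypoxic regions and 6.43, 6.05 and 6.5 in normoxic regions, and it ran from 5.0 to 5.43 across the 12 cultures. Tumour and culture arrays did not overlap, while hypoxic and normoxic samples did in each setting. The differences were 0.14 ± 0.18 in tumours (95% interval -0.31 to 0.58), 0.08 ± 0.10 at 6 h (-0.14 to 0.29) and 0.11 ± 0.10 at 16 h (-0.11 to 0.33), none of them called. Without tumour 3 the tumour difference was 0.21.

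Slc16a3 encodes MCT4, a low-affinity carrier that exports lactate from glycolytic cells. Its level in tumours 1, 2 and 3 was 7.89, 9.04 and 7.66 in hypoxic regions and 6.95, 7.42 and 6.44 in normoxic regions. All hypoxic regions lay above all normoxic ones, with gaps of 0.94, 1.63 and 1.22. The difference was 1.26 ± 0.21 (2.40-fold, SE, n = 3 tumours), with adjusted p = 0.208, and 1.28 (adjusted p = 0.453) without tumour 3. Without tumour 1 it was 1.42 and passed (adjusted p = 0.0135), in a fit whose p, as for Hk2, hardly measures the spread between tumours.

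In culture, the Slc16a3 level after 6 h was 5.93, 5.87 and 6.38 in hypoxia and 5.87, 6.14 and 6.27 in normoxia. After 16 h it was 5.97, 6.07 and 6.23 in hypoxia and 6.14, 6.00 and 5.93 in normoxia. The groups overlapped at both times, and every culture lay below every tumour region. The differences were -0.03 ± 0.14 at 6 h (95% interval -0.34 to 0.28) and 0.07 ± 0.14 at 16 h (-0.24 to 0.38). A doubling of the signal as in the tumour regions lay outside both intervals. In the cultures the probe set was brighter than 46.4% to 54.2% of all probe sets, and its r with the dim Slc2a4 was 0.786. Whether its signal there lay near background was not tested. The tumour response minus the mean culture response was 1.24 ± 0.19 (95% interval 0.82 to 1.66, adjusted p = 0.0176), in a fit of all 18 arrays with the 9 pairs of hypoxic and normoxic arrays as blocks. Slc16a3 alone of the 7 genes passed this test, which called 1.17% of all probe sets. Its call held without any single tumour (adjusted p = 0.0217 without tumour 3). It was lost without the pair blocks (1.24, adjusted p = 0.122), against either culture time alone (1.29 at 6 h, adjusted p = 0.0516, and 1.19 at 16 h, adjusted p = 0.0565) and without the 6 h culture pair 13 or the 16 h culture pair 22 (1.19 for both, adjusted p = 0.0629 and 0.0655). Among the others, the same difference was 0.72 ± 0.32 for Hk2 (adjusted p = 0.29), and 1.24 (adjusted p = 0.00997) without tumour 3. For Slc2a1 it was 0.43 ± 0.54 (adjusted p = 0.709), with 1.25 without tumour 3 and -0.34 without tumour 1. For Slc2a3 it was -0.47 ± 0.43 (adjusted p = 0.604). It was -0.09 without tumour 3, -1.10 (adjusted p = 0.0982) without tumour 1 and 0.10 after quantile normalization.

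Slc16a1 encodes MCT1, the widely expressed carrier that moves lactate in either direction. Its level was 7.19, 6.75 and 6.75 in hypoxic regions and 6.80, 7.33 and 6.67 in normoxic regions. After 6 h it was 7.90, 8.11 and 8.48 in hypoxic cultures and 7.88, 8.0 and 7.68 in normoxic cultures. After 16 h it was 7.72, 8.02 and 7.89 in hypoxia and 7.76, 8.11 and 8.01 in normoxia. Hypoxic and normoxic samples overlapped everywhere, and all cultures lay above all tumour regions. The differences were -0.04 ± 0.24 in tumours (95% interval -0.62 to 0.55), 0.31 ± 0.15 at 6 h (-0.02 to 0.64) and -0.09 ± 0.15 at 16 h (-0.41 to 0.24), none of them called. The tumour difference was -0.10 without tumour 3 and 0.24 without tumour 2.

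**Figure D2:**
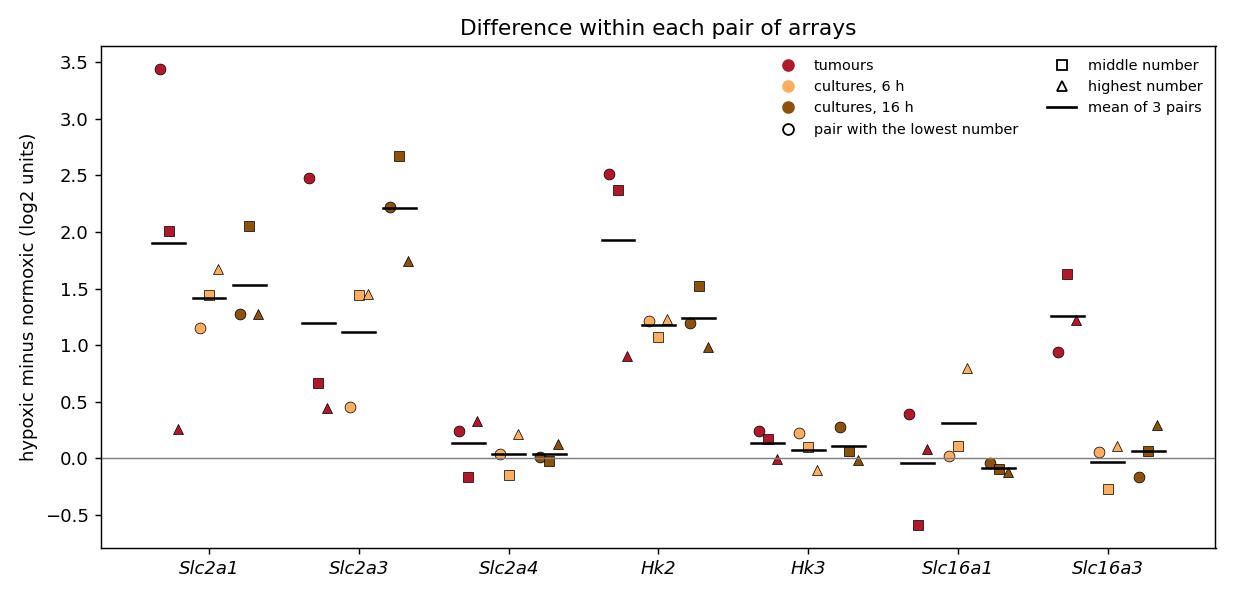
The plot gives, for each gene (horizontal axis), the hypoxic minus normoxic difference in log2 units (vertical axis) within each tumour and within each pair of cultures of the same number, with a bar at the mean of 3 pairs. Slc2a1 spans 0.26 to 3.44 across tumours, and the 3 tumour points of Slc16a3 lie at 0.94 to 1.63 above all of its culture points.

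Counted over the genes, 2 of 7 passed at 6 h, where 0.19% of all probe sets did, and 3 of 7 at 16 h, where 0.705% did, all of them higher in hypoxia (0.183% and 0.603% of probe sets were called higher). In a fit blocked by culture number, 2 and 3 genes passed as well (0.219% and 0.979% of probe sets). When the spread was shared with the tumour arrays in a fit of 18 arrays, 0 passed at either time (adjusted p = 0.579 and 1 at 6 h, 0.084 to 0.357 at 16 h). In tumours limma called 0 of 27363 probe sets (0%). At an unadjusted p of at most 0.05 there were 2496 probe sets, and 4 of the 7 genes were higher at that level (3.42% of probe sets). Hypoxic regions lay above normoxic regions without overlap for 3 of the 7 genes in tumours (11.8% of probe sets). The same held for 3 genes in cultures at 6 h (5.6%) and 3 at 16 h (6.6%). A fit of the tumour response that shared its spread with the cultures, with all 18 arrays and each pair as a block, called Slc2a1 (adjusted p = 0.0371), Hk2 (adjusted p = 0.00381) and Slc16a3 (adjusted p = 0.00275), together with 5.15% of all probe sets. limma called 0 probe sets (0%) for the 16 h response minus the 6 h response, where the smallest adjusted p was 0.982. An unadjusted p of 0.05 was reached by 1194 of 27363, Slc2a3 among them, which is no more than that level alone lets through. Between the culture times, which are also different sets of cultures, 1 of 7 genes was called in hypoxia (2.93% of probe sets). In normoxia 0 were (4.86%, with 6015 at an unadjusted p of 0.05).

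Tumour regions were next compared with cultures of the same oxygen state. Hk3 was higher and Slc16a1 lower in tumours at both oxygen states, and Slc16a3 was higher, most of all in hypoxic regions. Laser-captured tissue holds host cells, so in these comparisons, as in the tumour regions themselves, fewer cells of a type and less RNA per cell cannot be told apart. In hypoxia, tumour regions exceeded cultures by 2.12 ± 0.25 for Slc16a3 (4.35-fold, adjusted p = 3.87e-06), by 1.19 ± 0.12 for Hk3 (2.28-fold, adjusted p = 7.82e-07) and by 0.51 ± 0.12 for Slc2a4 (1.42-fold, adjusted p = 0.00152). Slc16a1 fell by 1.12 ± 0.17 relative to hypoxic cultures (adjusted p = 2.52e-05) and Slc2a3 fell by 1.30 ± 0.38 (adjusted p = 0.00599). Slc2a1 (0.15 ± 0.36, adjusted p = 0.719) and Hk2 (0.37 ± 0.25, adjusted p = 0.181) were not called. In normoxia, the differences were 0.88 ± 0.25 for Slc16a3 (adjusted p = 0.0071), 1.14 ± 0.12 for Hk3 (adjusted p = 2.01e-06), 0.41 ± 0.12 for Slc2a4 (adjusted p = 0.0086) and -0.97 ± 0.17 for Slc16a1 (adjusted p = 0.000155). Slc2a1 at -0.28 ± 0.36, Slc2a3 at -0.83 ± 0.38 and Hk2 at -0.35 ± 0.25 were not called. Without the normoxic array of tumour 3 the 4 calls held, at 1.13 for Slc16a3, 1.06 for Hk3, 0.50 for Slc2a4 and -0.84 for Slc16a1, and Slc2a3 passed as well, at -1.13 (adjusted p = 0.0287).

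Calls were common in these comparisons. Tumour arrays also had a smaller SD over probe sets than culture arrays, which median centring leaves unchanged. The part of this SD in the differences of the 7 genes and of the cell markers was not tested. In hypoxia 5 of 7 genes passed, where 76% of all probe sets did (14630 higher and 6159 lower), and in normoxia 4 of 7, where 64.3% did (11938 higher and 5663 lower). The median of all probe sets lay at 0.37 in hypoxia and 0.25 in normoxia as deposited. Median centring of each array moved these to 0.01 and -0.07 and the split of calls to 7317 higher and 8670 lower in hypoxia and to 4371 higher and 8487 lower in normoxia. Hk3, Slc16a1 and, in hypoxia, Slc16a3 kept their calls under all 17 alternatives, but the size of the Hk3 difference moved with the scaling. After cyclic loess it was 0.55 in hypoxia and 0.67 in normoxia. The Slc2a4 call did not hold under any rescaling. Its differences were 0.05 (quantile normalization), 0.15 (median centring) and -0.12 (cyclic loess) in hypoxia, and 0.04, 0.10 and -0.04 in normoxia. In hypoxia the Slc2a3 difference missed the threshold after quantile normalization (-0.81, adjusted p = 0.171), after cyclic loess (-0.88, adjusted p = 0.0745), against 6 h cultures alone (-0.58, adjusted p = 0.242) and without tumour 2 (-0.75, adjusted p = 0.0673). In normoxia the Slc16a3 difference missed it under all 3 rescalings (0.52 to 0.76, adjusted p = 0.0551 to 0.118) and without tumour 2 (0.64, adjusted p = 0.0621). Rescaling also added calls. In hypoxia Hk2 passed after quantile normalization (1.10, adjusted p = 0.00408) and after cyclic loess (0.89, adjusted p = 0.00903), and its difference was 0.01 after median centring. In normoxia Slc2a3 (-1.15, adjusted p = 0.0232) and Hk2 (-0.67, adjusted p = 0.0412) passed after median centring, whereas cyclic loess put Hk2 at 0.12 and Slc2a1 at 0.39. Slc2a1 was at 0.38 after quantile normalization there, and at -0.21 after median centring in hypoxia. Over all alternatives 4 to 7 of the 7 genes passed in hypoxia, where 42.7% to 77.9% of the probe sets tested did. Without tumour 3, hypoxic regions exceeded hypoxic cultures in Slc2a1 by 0.85 (adjusted p = 0.00487) and in Hk2 by 0.84 (adjusted p = 0.000294), while without tumour 1 the values were -0.43 and -0.02.

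**Figure D3:**
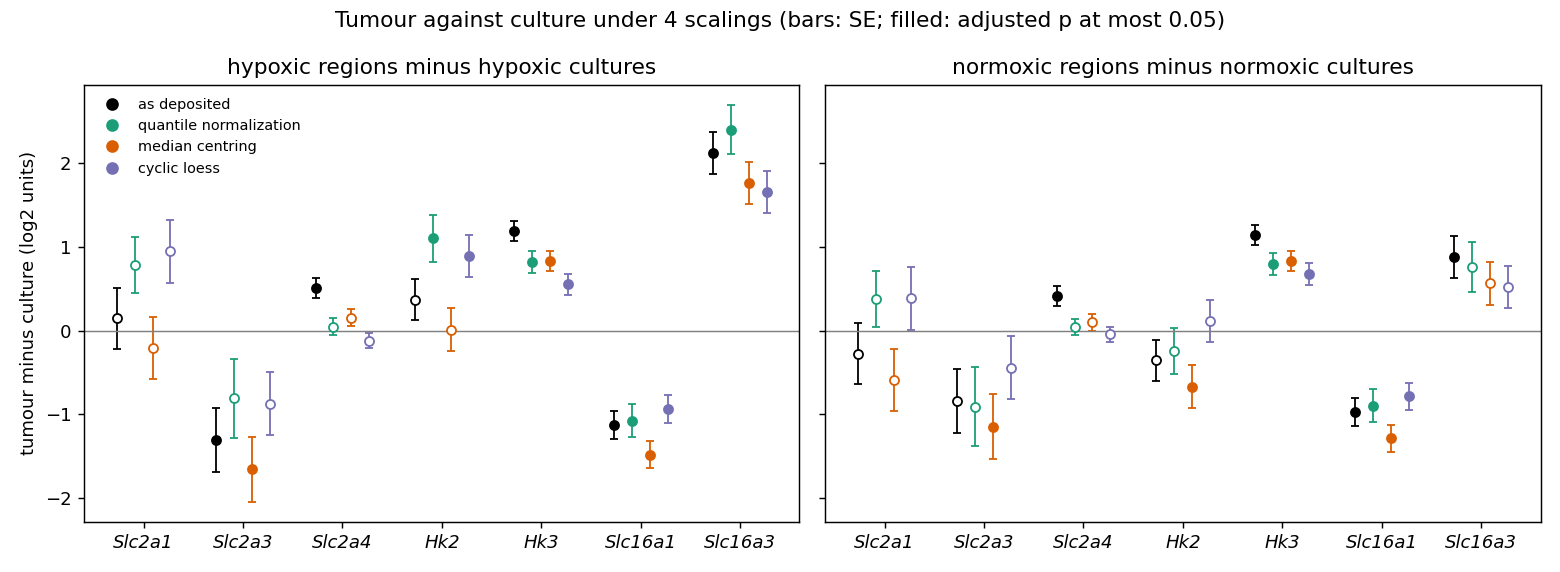
The panels plot the tumour minus culture difference in log2 units (vertical axis, bars show SE) of each gene under 4 scalings of the same values, for hypoxic samples on the left and normoxic samples on the right. Hk3 and Slc16a1 keep their side of 0 and their call in all 4, whereas Slc2a4 is called only as deposited.

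Leukocyte markers moved with the tumour samples. The mean log2 level of 9 macrophage and microglia markers ran from 6.80 to 7.29 in hypoxic regions and from 7.34 to 7.90 in normoxic regions, and from 5.15 to 5.36 across the cultures. All 9 were higher in tumours than in cultures at both oxygen states and passed the test, as Hk3 did (53.5% of all probe sets were called higher in hypoxia and 43.6% in normoxia). Under the 3 rescalings 6 to 8 of them passed in hypoxia and 8 to 9 in normoxia. Within tumours, 3 of the 9 were higher and 6 lower in hypoxic regions (median -0.40, against 0.10 for all probe sets), and 0 passed. Without tumour 3, 4 were higher and 5 lower (median -0.11, against 0.04). The 8 neutrophil markers averaged 5.56 to 6.03 in hypoxic regions, 5.33 to 5.62 in normoxic regions and 4.72 to 5.0 in cultures. All 8 were higher on average in hypoxic regions (median 0.15, against 0.10 for all probe sets), and 0 passed. In tumour 2 the mean of these markers was 5.56 in the hypoxic and 5.62 in the normoxic region. Without tumour 3, 7 of the 8 were higher (median 0.15, against 0.04). The 8 T and NK cell markers averaged 5.81 to 6.07 in hypoxic regions, 6.35 to 7.89 in normoxic regions and 4.89 to 5.19 in cultures, and all 8 were lower in hypoxic regions (median -0.60), with 0 passing. The normoxic region of tumour 3 was at 7.89 and those of the other tumours at 6.52 and 6.35. Without tumour 3, 7 of the 8 T and NK cell markers were lower (median -0.35). Most markers of other cell types were higher in tumours too. As deposited, 7 of 8 skeletal muscle genes and 5 of 6 adipocyte genes, from the tissues in which Slc2a4 is best known, passed as higher at each oxygen state, and so did 4 of 4 endothelial, 5 of 5 erythroid and platelet, and 6 of 8 glial genes. Of 5 pericyte and smooth muscle genes, 3 passed as higher at each oxygen state and 1 as lower in normoxia. Under the 3 rescalings 2 to 5 skeletal muscle genes and 1 to 3 adipocyte genes passed as higher in hypoxia (20.5% to 30.5% of all probe sets did), and 3 to 4 and 0 to 2 in normoxia (16% to 22%). RMA gives no value of 0, so no marker could be read as absent. The part of these cells in the values of Hk3, Slc2a4, Slc16a1 and Slc16a3 was not tested.

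Beyond the 7 genes, 68 symbols of other genes of glucose and lactate handling were listed, and 53 genes among them were measured. In tumours 32 of the 53 were higher and 21 lower in hypoxic regions, where the median of all probe sets lay at 0.10. Of the 53, 0 passed, and 8 had an unadjusted p of at most 0.05, as had 2496 of all 27363 probe sets. Without tumour 3, 29 were higher and 24 lower, with the median of all probe sets at 0.04. Then 0 passed (0% of all probe sets did) and 3 reached that level, at which all probe sets were not counted. In cultures 2 passed at 6 h and 3 at 16 h, all higher in hypoxia (0.183% and 0.603% of all probe sets were called higher). Among other glucose transporters, 9 of 10 listed were measured and 0 passed in tumours or at either culture time, nor did any reach an unadjusted p of 0.05. Their median difference was 0.22 in tumours, where that of all probe sets was 0.10. It was 0.05 at 6 h and -0.04 at 16 h, against 0.01 and -0.03 for all probe sets. Slc2a10, a carrier of the endoplasmic reticulum and Golgi, was at 0.12 ± 0.18 in tumours, 0.11 ± 0.11 at 6 h and -0.14 ± 0.11 at 16 h. Slc2a6 was at 0.22 ± 0.24, 0.16 ± 0.13 and 0.02 ± 0.13 in the same order, and Slc5a2, the sodium-coupled transporter of the kidney, at -0.12 ± 0.19, 0.03 ± 0.11 and -0.21 ± 0.11.

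For the other hexose kinases and glucose-6-phosphatases 10 symbols were listed, with G6pc1 also under its older symbol G6pc, and 4 genes were measured. Of these 4 genes, 0 passed in the same 3 comparisons, again with 0 at an unadjusted p of 0.05. Their medians were 0.06, 0.01 and 0.08 in tumours, at 6 h and at 16 h. Adpgk, a glucokinase that uses ADP, was at -0.47 ± 0.31 in tumours, -0.14 ± 0.19 at 6 h and 0.25 ± 0.19 at 16 h. G6pc3, a widely expressed glucose-6-phosphatase, was at 0.13 ± 0.22, 0.07 ± 0.19 and 0.24 ± 0.19, and the liver enzyme G6pc1 at 0.08 ± 0.19, -0.04 ± 0.12 and -0.13 ± 0.12.

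Of other monocarboxylate transporters and their chaperones, 12 of 16 were measured, of which 1 passed at 16 h, 0 at 6 h and 0 in tumours (with 2, 0 and 2 at an unadjusted p of at most 0.05). The medians were 0.08, 0.01 and 0.04 in tumours, at 6 h and at 16 h. The gene that passed was Bsg, basigin, the membrane glycoprotein that carries both MCT1 and MCT4 to the cell surface. In tumours 1, 2 and 3 its level was 10.49, 10.48 and 10.02 in hypoxic regions and 9.90, 9.35 and 9.41 in normoxic regions. After 16 h it was 9.71, 9.86 and 9.61 in hypoxic cultures and 8.93, 8.93 and 8.85 in normoxic cultures. In tumours and in 16 h cultures the hypoxic samples lay above the normoxic ones without overlap, as they did for 11.8% and 6.6% of probe sets. Bsg rose by 0.83 ± 0.15 at 16 h (1.77-fold, adjusted p = 0.022), while it was at 0.24 ± 0.15 at 6 h (adjusted p = 0.984) and at 0.78 ± 0.20 in tumours (adjusted p = 0.354). Slc16a7 (MCT2) was at -0.13 ± 0.19 in tumours, -0.45 ± 0.25 at 6 h and 0.54 ± 0.25 at 16 h, and Slc16a4 at -0.53 ± 0.28, 0.06 ± 0.17 and -0.31 ± 0.17, with no call.

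Of the genes of lactate and pyruvate handling, 9 of 10 were measured, and 1 passed at each culture time and 0 in tumours (2 there at an unadjusted p of at most 0.05). The medians were -0.01, -0.01 and 0.14 in tumours, at 6 h and at 16 h. Pdk1, a kinase that turns off pyruvate dehydrogenase, rose by 1.76 ± 0.16 at 6 h (3.40-fold, adjusted p = 0.000106) and by 1.70 ± 0.16 at 16 h (3.26-fold, adjusted p = 0.000103). In tumours it was at 0.86 ± 0.24 (adjusted p = 0.394). Ldha, the lactate dehydrogenase subunit of glycolytic cells, was at -0.01 ± 0.20 in tumours, 0.07 ± 0.10 at 6 h and 0.21 ± 0.10 at 16 h, and was not called. The testis form Ldhc was at -0.53 ± 0.26, 0.49 ± 0.26 and 0.13 ± 0.26.

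Regulators of glucose uptake and transporter traffic gave 19 of 22 measured genes, of which 1 passed at each culture time and 0 in tumours (4 there at an unadjusted p of at most 0.05). The medians were 0.12, 0.02 and 0.03 in tumours, at 6 h and at 16 h. Egln3, an oxygen-sensing prolyl hydroxylase that marks HIF for destruction and is itself a HIF target, rose by 1.23 ± 0.14 at 6 h (2.35-fold, adjusted p = 0.00139) and by 1.44 ± 0.14 at 16 h (2.7-fold, adjusted p = 0.000225). In tumours it was at 0.12 ± 0.60, with 6.43, 5.66 and 6.40 in hypoxic regions and 5.30, 7.55 and 5.28 in normoxic regions of tumours 1, 2 and 3, so tumour 2 ran the other way. Egln1 was at 0.67 ± 0.24 in tumours, 0.74 ± 0.17 at 6 h and 0.48 ± 0.17 at 16 h, and Vhl, the ligase subunit that binds hydroxylated HIF, at 0.13 ± 0.21, 0.08 ± 0.11 and 0.35 ± 0.11, with no call. In the test of the tumour response minus the culture response, Stxbp3, a partner of the syntaxins that dock GLUT4 vesicles, was the single call of the 53, at -0.80 ± 0.16 (adjusted p = 0.0496). This test called 1.17% of all probe sets. Without tumour 3 Stxbp3 was at -0.83 and was not called (adjusted p = 0.0545). Then 0 of the 53 passed, where 2.37% of all probe sets did. At an unadjusted p of at most 0.05 there were 11 of the 53, and all probe sets were not counted at that level.

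Leaving out tumour 3 moved the tumour differences of some of these genes. Bsg was then at 0.86, Pdk1 at 0.87 and Egln1 at 0.46, while Adpgk was at -0.07, Slc16a4 at -0.20, Ldha at 0.16, Vhl at -0.04 and Egln3 at -0.38. The medians of the lists were 0.14 for glucose transporters, -0.04 for hexose kinases and glucose-6-phosphatases, 0.02 for monocarboxylate transporters, 0.16 for lactate and pyruvate handling and -0.04 for regulators, against 0.04 for all probe sets.

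**Figure D4:**
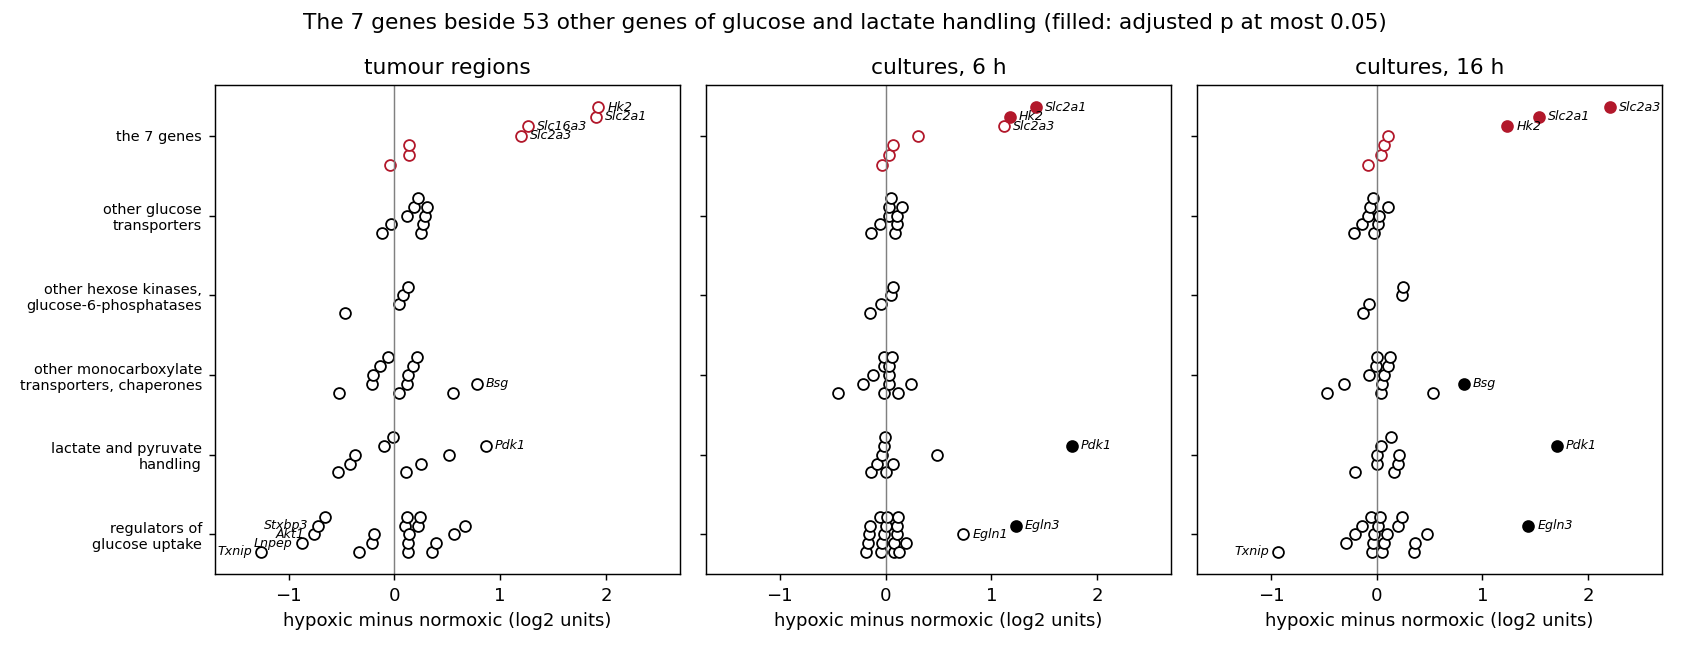
Each point is a gene at its hypoxic minus normoxic difference in log2 units (horizontal axis), for tumour regions, 6 h cultures and 16 h cultures, with the 7 genes in red above the 5 lists of other genes (rows). Filled points passed at adjusted p of 0.05. In cultures the filled points outside the 7 genes are Pdk1, Egln3 and, at 16 h, Bsg.

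The genes whose log2 profile was most like each of the 7 were sought among 14323 others over the 18 arrays, which share 3 tumours and 2 culture times, and the correlation over the 12 culture arrays stands beside it as a description. For Slc2a1 the closest was Hk2 (r = 0.954 over 18 arrays and 0.964 over 12), followed by the neuronal enolase Eno2 (0.889 and 0.919) and the carbonic anhydrase Car9 (0.877 and 0.965). For Hk2 they were Slc2a1, Ndrg1 (0.904 and 0.928) and Car9 (0.884 and 0.925). Slc2a3 had P4hb, a protein disulfide isomerase (0.902 and 0.968), Ankrd37 (0.870 and 0.881) and the endoplasmic reticulum oxidase Ero1a (0.863 and 0.923). For these 3 genes the correlations over the cultures were 0.881 or more.

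Hk3, Slc16a1 and Slc16a3 had lower correlations over the cultures than over the 18 arrays. Hk3 was most like the ficolin Fcna (0.974), Nrros (0.973) and the leukocyte receptor Lilra5 (0.971), with 0.601, 0.081 and 0.231 over the cultures. Slc16a3 was most like Podxl (0.958), Fblim1 (0.954) and Agap3 (0.949), with 0.465, 0.555 and 0.138 over the cultures. Slc16a1 was most like Tmem39a (0.957), Mapk6 (0.955) and Serinc1 (0.954), with 0.601, 0.573 and 0.507. The dim Slc2a4 was most like Col9a2 (0.975), Insl3 (0.970) and Morn5 (0.968), with 0.869, 0.899 and 0.813 over the cultures. Slc16a3 itself had r = 0.274 with Slc2a1 and 0.326 with Hk2 over the 18 arrays, and 0.174 and 0.111 over the cultures. With Slc2a4 its r was 0.775 over the 18 arrays and 0.786 over the cultures.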

How the data were processed

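Total RNA of 18 samples in 6 groups of 3 was amplified (NuGEN Ovation WT-Pico) and read on Affymetrix Rat Gene 1.0 ST arrays, according to the labels' protocols. The authors deposited log2 signals per probe set. Per the submitters' processing notes these came from RMA in Partek 6.5b; joint normalization of all arrays is not stated there. Of 27363 probe sets, 15420 are listed in the platform annotation, 15097 with 1 symbol and 323 with several, and 11943 were tested unnamed. The symbols of 15067 matched a RefSeq rat table by Entrez ID (0 changed). For 499 genes with several probe sets, the one with the highest mean stood for the gene.

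The deposited log2 values were fitted in R 4.3.3 with limma 3.58.1 (lmFit, eBayes). Two-sided p-values were adjusted by Benjamini-Hochberg across the 27363 probe sets, and 0.05 was the threshold. Tumour regions used 6 arrays with the tumour as a block, cultures 12 arrays in 4 groups, tumour response minus mean culture response 18 arrays with 9 pairs as blocks, and tumour against culture 18 arrays in 6 groups. Tumour pairs come from the design. For cultures, the deviation of each array from its group mean was correlated with that of its same-numbered partner. The correlations were 0.125, 0.193 and 0.192 for 6 h cultures, 0.130, 0.188 and 0.307 for 16 h cultures and 0.128, 0.0357 and 0.273 for tumours. Partners of different numbers ran from -0.265 to 0.177 at 6 h, from -0.197 to -0.0246 at 16 h and from -0.242 to 0.167 in tumours. At 6 h the highest of these (0.177) exceeded that of culture number 6 (0.125), so the check does not establish the pairing. The culture numbers were taken as pairs, which the labels do not state. They are blocks in the main fit of the tumour response minus the culture response, and in an alternative to the culture fits. Fits were tested on simulated data. Alternatives changed the scaling, the prior variance, the filter on dim probe sets, the blocks and the arrays in the fit. The lists without tumour 3 and under other scalings were added after seeing the data.

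The 7 genes and the lists of other genes and cell markers were chosen with earlier results of these data known. Named genes are the 7, the 3 most alike for each, the 3 of each pathway list with the smallest p and any list member called. Lists are described by counts and medians, without a test of the list.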

Additional observations from a re-analysis of the deposited data

Results flagged for a closer look

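The response of Slc16a3 differed between tumours and cultures. The hypoxic minus normoxic difference was 1.26 in tumours, with all 3 tumours above 0, and -0.03 and 0.07 in cultures at 6 h and 16 h. The test of the difference itself gave 1.24 ± 0.19 log2 units (adjusted p = 0.0176, with 0.00394 to 0.122 over its alternatives). It is the single result that was marked for a closer look, and groups of 3 are too small for a test of outlying samples.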

How the results depend on the processing

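Of 903 gene values under alternatives, 806 kept their direction and side of the threshold, 22 lost it, 14 gained it, 59 uncalled values moved and 2 reversed. The 2 reversed were Slc2a4 in tumours against cultures after cyclic loess, at -0.043 in normoxia and -0.118 in hypoxia. Counts of the 7 genes called moved as follows. The share of all probe sets called stands in brackets. In tumours the count was 0 as reported (0%), 3 when all 18 arrays were fitted by pair (5.15%), and 0 to 2 with a tumour left out (0% to 2.06%). In cultures it was 2 at 6 h (0.19%) and 3 at 16 h (0.705%), and 0 at both times when all 18 arrays shared a spread (0.0219% and 0.121%). With a culture left out it was 2 to 3 at 6 h (0.0987% to 0.183%) and 3 at 16 h (0.27% to 0.625%). For the tumour response minus the culture response it was 1 (1.17%), and 0 to 2 with a pair left out (0.161% to 4.99%). It was 0 with no replicate block (0.866%), against 16 h cultures only (0.387%) and against 6 h cultures only (0.249%). For normoxic tumour regions against normoxic cultures it was 4 (64.3%), with 2 after quantile normalization (38.3%) and 2 after cyclic loess (36.8%), and 3 to 5 with an array left out (52.5% to 67.1%). The cause of these changes was not tested. With the culture number as a replicate block, 2 genes stayed called at 6 h and 3 at 16 h, so the pairing changed no call of the 7 in culture. All probe sets called then numbered 60 at 6 h and 268 at 16 h, against 52 and 193 without it. In the difference between tumour and culture responses, dropping the block left 237 probe sets called, against 319 with it. Leaving out arrays gave 27 to 50 calls at 6 h, 74 to 171 at 16 h and 44 to 1365 for that difference, and 563 in tumours without tumour 1. Tumour against culture gave 10082 calls in normoxia and 11682 in hypoxia after cyclic loess, against 17601 and 20789 as deposited. Each of the 7 genes has 1 probe set, so the alternative with other probe sets gave no value. With 3 arrays a group and dim signals for Slc2a4 and Hk3, small responses may have been missed. Whether the Slc16a3 signal in cultures lay near background was not tested.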
